A study of Mus musculus with 3 samples.

Results

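The transcription regulators of the Star promoter are 10 genes whose products are known to activate or repress Star, whose protein brings cholesterol into mitochondria, where steroid synthesis starts. They were found by gene symbol among the non-control probes of the arrays. The symbols Nr5a1, Nr5a2, Nr0b1, Nr4a1, Gata4, Gata6, Cebpb, Creb1, Crem and Sp1 were carried by 22 of the 41174 different probes (10 of 28090 gene names), and 20 of these 22 were bright enough to test, with at least 1 for every gene. The tested ovaries came from Bmal1fxfxCresf-1 mice (here cKO), which carry floxed alleles of the clock gene Bmal1 and a Cre recombinase under the sf-1 promoter. The controls were, by their genotype labels, Bmal1fxfx mice without Cre, labelled as wild type. All were C57Bl/6J females, 10 weeks old, killed at Zeitgeber time 12 on day 3.5 after copulation. RNA of 3 animals was pooled per genotype and array, giving 3 cKO pools in cy3 against 3 control pools in Cy5 on 3 two-colour arrays. The source names of the control pools read fxwt where their genotype labels read fxfx. The labels thus do not settle whether the controls carry the same floxed alleles as the cKO mice. The number after the Cre name follows the array on arrays 2 and 3.

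Star transcription in the ovary is switched on by gonadotropin through cyclic AMP and protein kinase A. The nuclear receptors SF-1 (from Nr5a1) and LRH-1 (from Nr5a2) bind shared elements in the promoter, and DAX-1 (from Nr0b1) binds these receptors and represses. NUR77 (from Nr4a1), GATA4, GATA6, C/EBP beta, Sp1 and the cyclic AMP factors CREB and CREM act through elements of their own. Crem also encodes ICER, a short repressor made from an internal promoter. SF-1 has a further place in this design, because the promoter of its gene drives the Cre recombinase. In whole ovaries, fewer cells of a type and less RNA per cell cannot be told apart.

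The probes that read the regulators are shown first, because agreement between probes of different sequence bears on how far a ratio belongs to the gene. Each is a 60-base oligonucleotide, and the first 30 bases are printed, 5′ to 3′. Probes of a gene are numbered by falling signal. The second Nr5a1 probe was designed on an older accession described in the files as an embryonal LTR binding protein, which RefSeq lists among the synonyms of Nr5a1 as ELP.
Nr5a1 probe 1: ccagaggataccatgagagtgggtagggca
Nr5a1 probe 2: agctcagactcagaatttggcccttttaga
Nr5a2 probe 1: atgcaaagacagtgattctgcatatggcct
Nr0b1 probe 1: gagtgtggtactaggctaacaagctaattt
Nr4a1 probe 1: ctcttccgctctccttccatgtgtacataa
Gata4 probe 1: ctagaaaatacagactgtttgcaaaataaa
Gata4 probe 2: gaagcccaccttggctgcaagcacagcaca
Cebpb probe 1: gagaaccttttccgtttcgagcattaaagt
Cebpb probe 2: ggctgcagaagaaggtggagcagctgtcgc
Creb1 probe 1: agtcagtatggaagaatttcaaacaaatca
Sp1 probe 1: tctgtagttccttcctattaccgttttaat
Over the 24 pairs of probes that read the same gene, the longest run of bases shared by both ranged from 4 to 10, so their ratios are separate measurements of a transcript on the same RNA.

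Star itself was much lower in the cKO ovaries on every array. Its first probe had processed signals of 4637, 6172 and 5414 in the cKO pools of arrays 1 to 3, against 77765, 97780 and 101360 in the control pools. The groups lie far apart, and the log2 ratios of cKO over control, -4.07, -3.99 and -4.23, stayed within 0.24 of each other. The mean was -4.09 ± 0.12 (SD, n = 3), or 17.1-fold lower (limma, adjusted p = 0.0209), and the second probe gave -4.12 ± 0.36 (adjusted p = 0.0209). With normexp and loess the adjusted p of the 2 probes was 0.0326 and 0.0538, and it missed 0.05 for both with median centring, with scaling between arrays or without the filter on dim probes, while the means stayed near -4. This fall had been seen in these data before the regulators were chosen and is given as the scale for what follows.

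No regulator passed the test, and with 3 arrays and this spread the test has little power for changes of the size these probes show. The lack of calls therefore sets no limit to the changes. The intervals below give, for the scanner's ratios, the range left by the spread between the 3 pairs of pools. A dye difference common to all arrays and the choice of processing lie outside them. None of the 20 member probes (0) had an adjusted p below 0.05 in limma, adjusted over all 26421 tested probes, of which 0.223% did. With the scanner's ratios the count at an unadjusted p under 0.05 was also 0 of 20, against 5.32% of all probes, 2.77% higher and 2.55% lower in cKO. It reached 3 with normexp and median centring, where 3950 of the 26421 probes did. With the scanner's ratios the means ran from -0.28 to 0.87, with 17 above 0, against 48.9% of all probes. The count above 0 depends on the processing. With normexp and loess the means of Gata4 probe 2, both Cebpb probes and Creb1 probes 2 and 3 fell below 0, and that of Nr5a2 rose above it. The 17 include all 5 tested Crem probes, which read the same RNA. On arrays 1, 2 and 3, 14, 10 and 13 of the 20 were above 0, against 46.7%, 48.7% and 51.8% of all probes. For 16 of the 20 the whole 95% interval of the mean lay within a 2-fold difference either way, as it did for 71.5% of all probes. The 4 wider ones, a class that holds 28.5% of all probes, were both Nr5a1 probes, the Nr4a1 probe and 1 of Crem. The lowest end of any member's interval was -0.88, while Star's interval ended at -3.57. The ratios kept 1 sign on all 3 arrays for 5 member probes, against 23.2% of all probes: 4 stayed above 0 (11.6% of all) and 1 below (11.6%).

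**Figure D1:**
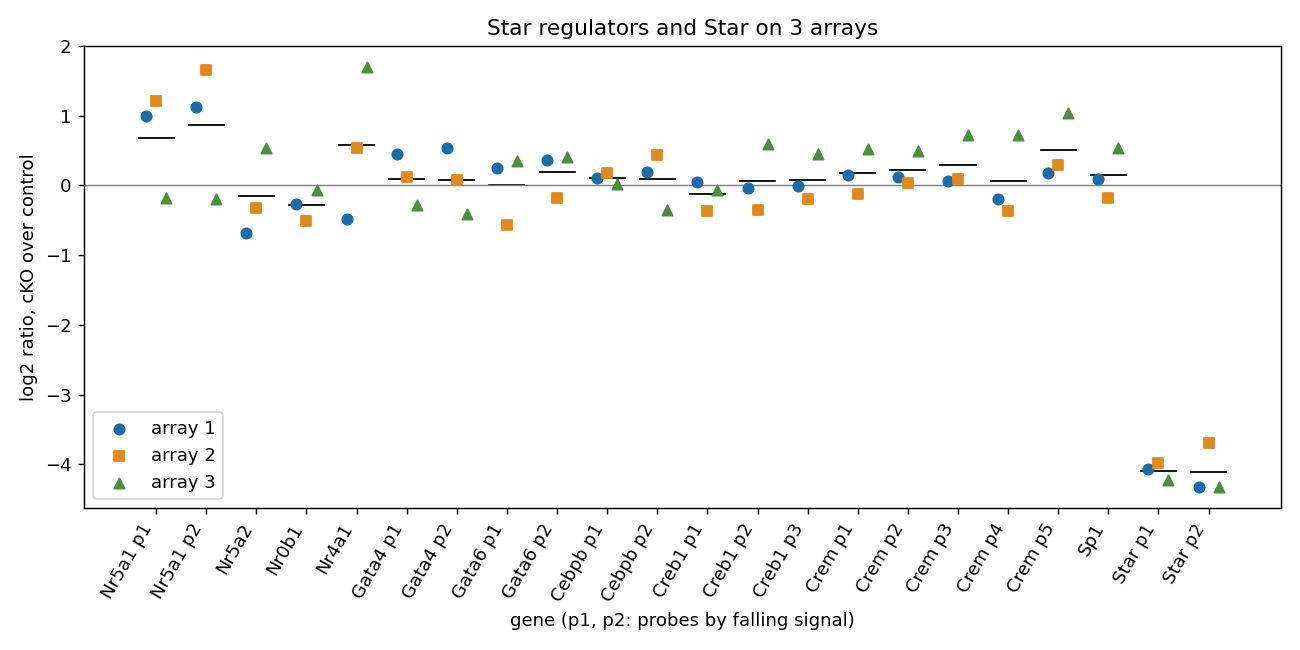
Log2 ratio of cKO over control (vertical axis) of each tested member probe and of both Star probes, 1 symbol per array and a bar at the mean of the 3 arrays. The member probes lie between -0.68 and 1.70 and the Star probes near -4, and for several regulators, such as Nr5a1 and Nr4a1, array 3 stands on the opposite side of 0 from array 1.

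**Figure D2:**
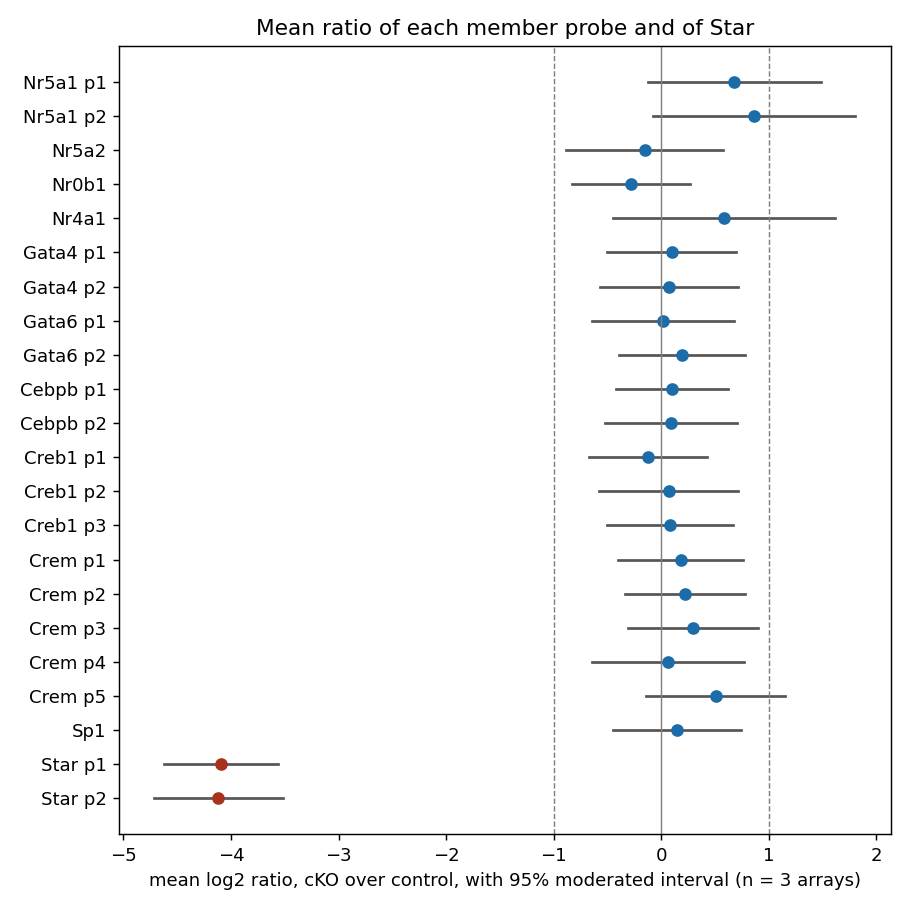
Mean log2 ratio of cKO over control with its 95% interval from the moderated fit over 3 arrays, 1 row per probe; dashed lines mark 2-fold either way. For 16 of 20 member probes the interval stays between the dashed lines, and those of Star end at -3.57 and -3.52.

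The arrays themselves set limits to these ratios. Of all probes, 67.4% to 69.1% were well above background in the cKO channel and 62.9% to 65.8% in the control channel. Median signals of tested probes were 732, 634 and 883 in the cKO channel, against 737, 633 and 884 in the control channel; signals were not scaled between arrays, so they are best compared within an array. Across tested probes the ratios of arrays 1 and 2 correlated at r = 0.48, those of arrays 1 and 3 at 0.07, and those of arrays 2 and 3, which share a slide, at -0.21. Probes are not replicates, and these values describe the arrays. The cKO sat in cy3 on every array, so genotype and dye cannot be told apart. Nothing in the labels puts a pool's animals in different litters or days, and p-values measure the spread between the 3 pairs of pools. Both channels of each array were well above background for every tested marker of granulosa (6), luteal (6), theca (4 of 5 listed) and oocyte cells (8). The filter already asks this of 1 channel, but it removed none of these markers that were on the array. The probe of Arntl, the gene symbol of Bmal1 in the files, gave 0.26, 0.10 and -0.28, a mean of 0.03 ± 0.28; where it lies relative to the floxed part is not stated in the labels, so it checks neither the deletion nor the genotypes.

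Among the nuclear receptors, the 2 Nr5a1 probes had the highest means of the tested member probes with the scanner's ratios, but the arrays disagreed. With normexp and loess Crem probe 5 was higher, at 0.60. SF-1 is the master regulator of steroid-producing cells of the gonad and adrenal. Its first probe had signals of 957, 895 and 962 in the cKO pools, against 479, 386 and 1091 in the control pools. Within arrays 1 and 2 the cKO pool was the brighter one, within array 3 the control pool, and the groups overlap. The log2 ratios were 1.00, 1.21 and -0.18, with a mean of 0.68 ± 0.75 (95% interval -0.13 to 1.48; adjusted p = 1). The second probe had signals of 261, 208 and 110 in the cKO pools and 119, 65.7 and 125 in the control pools, and gave 1.13, 1.66 and -0.19, a mean of 0.87 ± 0.96 (-0.07 to 1.80). Both probes thus put Nr5a1 at about 2-fold or more above the control on arrays 1 and 2 and slightly below it on array 3. The scanner software's own error of these log2 ratios was 0.22, 0.23 and 0.20 for the first probe, which covers the measurement on an array and not the difference between pools. Without array 3 the mean of the first probe was 1.11 and that of the second 1.40, and neither passed (limma, adjusted p = 0.125 and 0.121). Without array 2 the means were 0.41 and 0.47, and with normexp and loess 0.51 and 0.45, so the size of the Nr5a1 mean rests on single arrays and on the processing.

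Macrophage markers were likewise higher in the cKO pools on arrays 1 and 2 but not on array 3: 7, 7 and 1 of 7 markers were above 0 on arrays 1, 2 and 3, with medians of 1.04, 1.01 and -1.02. Their summed signals were 173784, 88739 and 84812 in the cKO pools and 35475, 37491 and 70541 in the control pools, and all 7 were well above background throughout. Smooth muscle markers had medians of 0.25, 1.16 and -1.29, with 6, 6 and 0 of 6 above 0, and summed signals of 129459, 134240 and 62140 in the cKO pools against 88956, 58574 and 141201 in the control pools. Theca markers, from cells that express SF-1, stood at -0.07, 0.32 and -0.38, with summed signals of 103305, 102659 and 65869 in the cKO pools and 109128, 75126 and 108174 in the control pools. Other lists did not share the order of signs of Nr5a1. Surface epithelium markers had medians of 1.18, -0.29 and -0.52, oocyte markers -0.20, -0.01 and -0.14, and endothelium markers -0.15, -0.18 and -0.13. The part of any of these cell types in the Nr5a1 ratios was not tested. By the distance between the 3 ratios, the genes nearest to Nr5a1 probe 1 were Scimp (0.99, 1.12 and -0.18), Insc (0.92, 1.08 and -0.17) and Gngt2 (1.03, 1.05 and -0.20), and 7 of 18206 genes lay within a distance of 0.25.

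**Figure D3:**
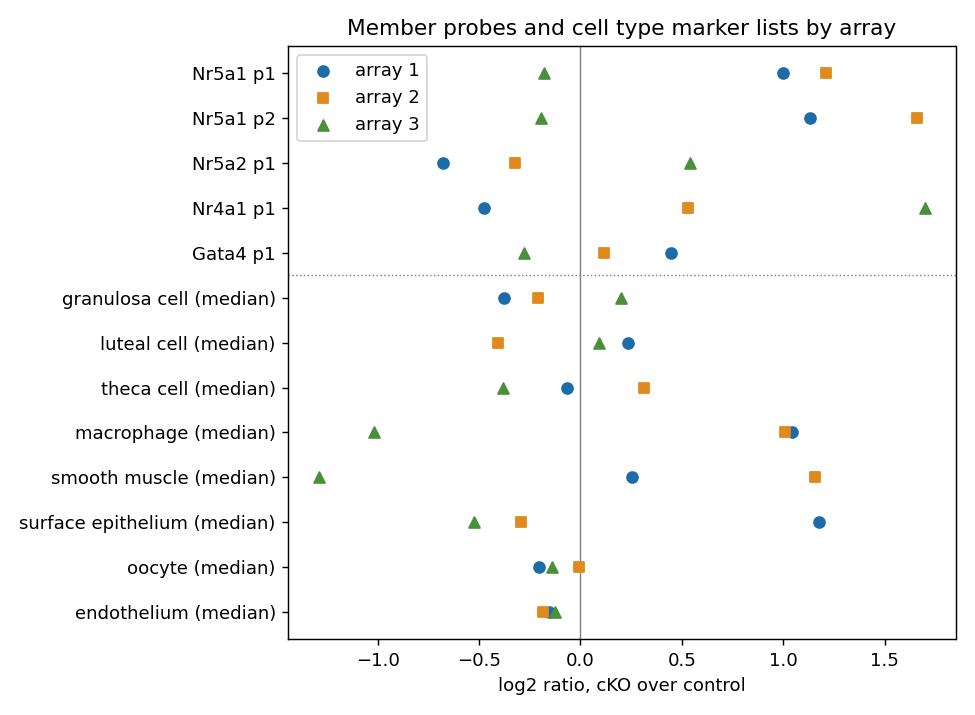
Log2 ratio of cKO over control on each array for 5 member probes (above the dotted line) and, below it, the median over the tested markers of each cell type. Both Nr5a1 probes, Gata4 probe 1 and the macrophage and smooth muscle medians lie above 0 on arrays 1 and 2 and below 0 on array 3. Nr5a2 and the granulosa median lie below 0 on arrays 1 and 2 and above 0 on array 3, where 3 of 6 granulosa markers were above 0. The other lists follow neither order.

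Nr5a2 ran the other way. LRH-1 is the close relative of SF-1 that is abundant in granulosa and luteal cells and binds the same elements. Its single probe had signals of 12934, 13007 and 20851 in the cKO pools, against 20719, 16288 and 14348 in the control pools. The pools of array 3 reverse the order of the other two arrays. The ratios were -0.68, -0.32 and 0.54, with a mean of -0.16 ± 0.63 (-0.88 to 0.57; adjusted p = 1). On every array the signs of Nr5a1 and Nr5a2 were opposite. Granulosa markers had medians of -0.38, -0.21 and 0.20 on the 3 arrays, with 1, 2 and 3 of 6 above 0, and summed signals of 63745, 90369 and 174094 in the cKO pools against 104248, 96121 and 128047 in the control pools. Luteal markers had medians of 0.24, -0.41 and 0.09, with 3, 2 and 4 of 6 above 0, and summed signals of 293261, 176559 and 245371 in the cKO pools against 155387, 146551 and 169069 in the control pools. The part of either in the Nr5a2 ratios was not tested.

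Nr0b1 was the 1 member below 0 on every array. DAX-1 represses Star and the action of SF-1. Its signals were 2138, 1196 and 2259 in the cKO pools and 2564, 1702 and 2368 in the control pools. The cKO pool was the dimmer one each time, though the groups overlap. The ratios of -0.26, -0.51 and -0.07 gave a mean of -0.28 ± 0.22 (-0.83 to 0.27; adjusted p = 1), a fold of 1.21 lower. With normexp background correction and median centring in place of the scanner's processing the mean was 0.22, with normexp and loess it was -0.0039, and with the scanner's ratios scaled between arrays -0.30, so no direction can be given.

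Nr4a1 spread most. NUR77 is an orphan receptor made within minutes of gonadotropin or stress signals. Its signals were 16353, 9726 and 28911 in the cKO pools, against 22750, 6723 and 8897 in the control pools. The cKO pool was the dimmer on array 1 and clearly the brighter on array 3. The ratios were -0.48, 0.53 and 1.70, a mean of 0.59 ± 1.09 (-0.45 to 1.62; adjusted p = 1), and the gap of 2.18 between arrays was the widest among tested members. The mean was 1.12 without array 1 and 0.03 without array 3. Among other early genes induced by cyclic AMP, of which Sik1, Fos and Nr4a2 were named after their values were seen, Sik1 gave -0.69, 0.49 and 2.07, Fos 0.22, -0.22 and 0.86, Egr1 0.75, 0.67 and 0.82 and Nr4a2 0.54, 0.43 and 0.25. The immediate early genes thus did not share 1 pattern over the arrays.

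**Figure D4:**
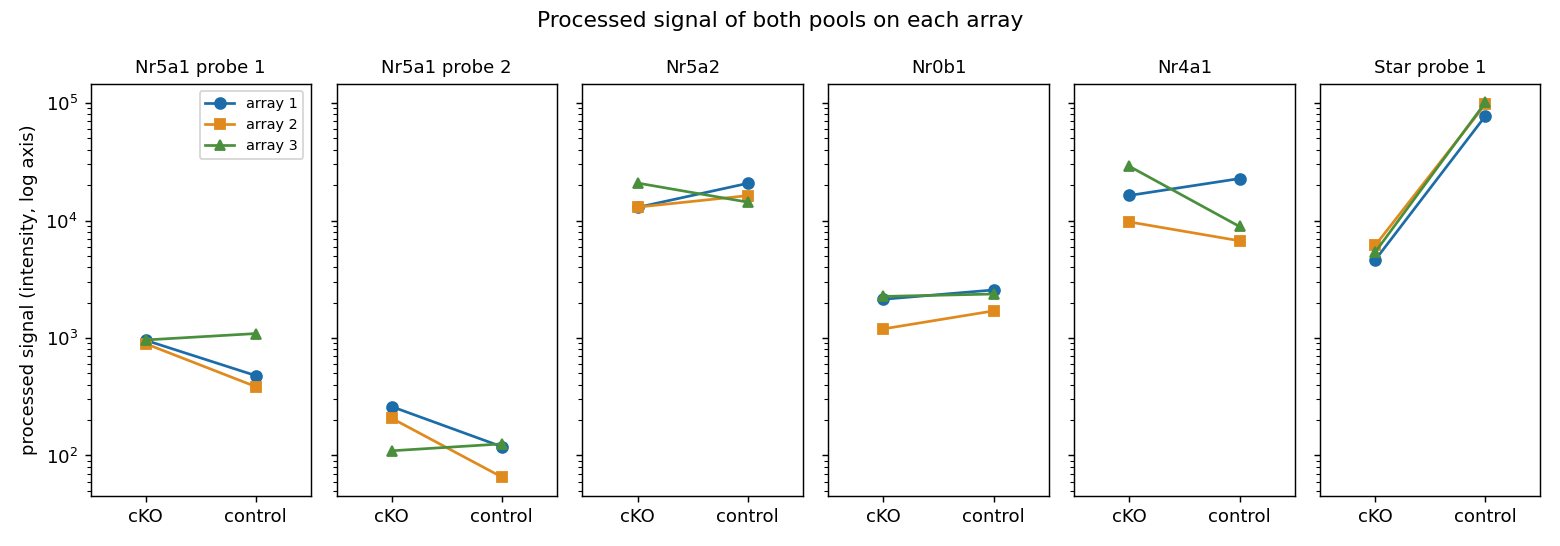
Processed signal (log axis) of the cKO pool, left, and the control pool, right, on each array for the nuclear receptors and for Star probe 1. Lines join the 2 pools of an array and can be compared within a panel; levels of different probes cannot. All 3 Star lines climb steeply to the control side, while the lines of Nr5a1, Nr5a2 and Nr4a1 slope both ways.

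The GATA factors are zinc finger proteins of the somatic gonad, and with the scanner's ratios their means lay between 0.01 and 0.19. For Gata4 probe 1, spotted 10 times per array, signals were 271, 413 and 732 in the cKO pools and 199, 382 and 887 in the control pools. The ratios were 0.45, 0.12 and -0.28, a mean of 0.10 ± 0.36 (-0.50 to 0.69). The 10 spots of an array, which share the same labelled RNA, had SDs of 0.08, 0.08 and 0.10 and ranged from 0.31 to 0.60 on array 1, from -0.01 to 0.25 on array 2 and from -0.41 to -0.11 on array 3. The scanner software put the error of each array's ratio at 0.21. The second Gata4 probe gave 0.54, 0.08 and -0.40, in the same order. Gata6 was read at a mean of 0.01 ± 0.50 by its first probe, with 12405, 8683 and 20820 in the cKO pools and 10414, 12808 and 16366 in the control pools. Its ratios were 0.25, -0.56 and 0.35, and the second probe gave 0.36, -0.19 and 0.41, a mean of 0.19 ± 0.33, so array 2 was the low one for both. The means of the 2 probes were 0.18 and 0.31 with normexp and loess and 0.35 and 0.52 with normexp and median centring (limma, adjusted p = 0.636 and 0.276). Gata6 probe 3 was not tested: its cKO signal was well above background on 2 arrays and its control signal on 0.

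Cebpb probe 1 had the lowest SD of all member probes. C/EBP beta is induced by luteinizing hormone and is required for ovulation and luteal formation. Its first probe had signals of 43178, 40566 and 44962 in the cKO pools and 40122, 35931 and 44314 in the control pools, unsaturated on every array. The ratios were 0.11, 0.18 and 0.02, with a mean of 0.10 ± 0.08 (-0.42 to 0.62). The second probe gave 0.19, 0.43 and -0.35, a mean of 0.09 ± 0.40. Both means fell just below 0 with normexp and loess, at -0.03 and -0.11, so no direction can be given.

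Creb1 had means near 0. Its product is activated when protein kinase A phosphorylates it. It had signals of 1560, 1012 and 1228 in the cKO pools and 1510, 1299 and 1280 in the control pools at its first probe, spotted 10 times. The ratios were 0.05, -0.36 and -0.06, with spot SDs of 0.04, 0.04 and 0.10 and a mean of -0.12 ± 0.21 (-0.67 to 0.42). Array 2 gave the lowest ratio, and the groups of signals overlap. The other two probes differed from it on array 3, at 0.59 and 0.44, with means of 0.07 and 0.08.

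Crem had 5 tested probes, all with a mean above 0 (0.06 to 0.50), and 3 were above 0 on every array. All 5 were highest on array 3, and without it their means were 0.012, 0.079, 0.079, -0.28 and 0.24 for probes 1 to 5. With normexp and loess they were 0.13, 0.034, 0.48, 0.0059 and 0.60. Probe 3 then gave 0.33, 0.29 and 0.83 and probe 5 0.45, 0.44 and 0.92. Probes 1, 2 and 4 did not keep 1 sign. With normexp and median centring the means were 0.34, 0.24, 0.69, 0.20 and 0.78, where the median of all tested probes was 0.12. The lowest adjusted p (limma) of these 2 runs was 0.209. Crem probe 5 had signals of 962, 718 and 892 in the cKO pools, against 851, 583 and 435 in the control pools. The cKO pool was the brighter on each array, and most so on array 3, where the control pool was dim. The ratios of 0.18, 0.30 and 1.04 averaged 0.50 ± 0.46 (-0.14 to 1.15; adjusted p = 1). Probe 1 gave 0.15, -0.13 and 0.52, a mean of 0.18 ± 0.32. Probe 4 gave -0.19, -0.36 and 0.73, so probes of the same gene differed in sign on arrays 1 and 2, and its mean was -0.025 with scaling between arrays and -0.0032 with the slide as a block. The other Crem probe, designed on transcript variant 7, was not tested, its cKO signal being well above background on 2 arrays and its control signal on 0. The files do not say which probes read the ICER form. Sp1, a broadly expressed factor that binds GC boxes, had 2047, 1926 and 3297 in the cKO pools and 1923, 2182 and 2280 in the control pools, with ratios of 0.09, -0.18 and 0.53 and a mean of 0.15 ± 0.36 (-0.45 to 0.74).

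The members fell into sets by how array 3 stood to the others, and probes of a gene mostly agreed on it. Array 3 gave the lowest of the 3 ratios for both probes of Nr5a1, of Gata4 and of Cebpb, 6 probes in all. It gave the highest for 13 probes, namely those of Nr5a2, Nr0b1, Nr4a1, Gata6, Crem and Sp1 and Creb1 probes 2 and 3. Over all tested probes array 3 was the lowest for 40.3% and the highest for 44.3%, 84.6% together, and nothing is read from the counts of member probes. The median SD over arrays was 0.39 for member probes and 0.42 for all tested probes.

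The genes around the 10 regulators were taken from lists, each gene read by its brightest tested probe. Among 38 other genes that act on Star transcription (AP-1 and ATF factors, co-activators, LXR receptors, kinase A subunits and others), 0 passed. The median was 0.02, against -0.02 over all 18206 genes tested, of which 0.258% passed. At an unadjusted p under 0.05, 2 were higher and 0 lower (2.9% and 2.95% of all genes), and 7 were above 0 on all arrays and 3 below (11.4% and 12.6% of all genes). Rora, a nuclear receptor of the clock, had the largest value at 1.52, 1.08 and 0.99, a mean of 1.20 ± 0.28 (adjusted p = 0.218), with 2 other probes at 1.29 and 0.89. Next came the stress-induced factor Atf3 at 0.74 ± 0.64 (adjusted p = 0.936) and Jun, an AP-1 subunit, at 0.50 ± 0.34 (adjusted p = 1).

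Of 20 known targets of SF-1 and LRH-1, 1 passed, Star. On all 3 arrays 8 were below 0 and 1 above, against 12.6% and 11.4% of all genes. At an unadjusted p under 0.05, 0 were higher and 3 lower, against 2.9% and 2.95% of all genes. Both counts of lower genes include Star, whose fall was known before the list was chosen. Nr0b2, below 0 on all arrays, was already counted among the other Star regulators. The median was -0.34, but it was -0.13 with normexp and loess, and 0.02 with normexp and median centring, where the median of all tested probes was 0.12. Lhcgr, the luteinizing hormone receptor, gave -1.26, -1.30 and -1.23, a mean of -1.26 ± 0.03 (adjusted p = 0.150). Scarb1, the lipoprotein receptor that supplies cholesterol, gave -0.33, -0.78 and -1.75, a mean of -0.95 ± 0.73 (adjusted p = 0.731). Inha, an inhibin subunit, was at -0.49 ± 0.22 (adjusted p = 1), with a second probe at 0.14. Cyp11a1, the side-chain cleavage enzyme that acts after Star, gave 0.33, -0.09 and -1.08, and Cyp19a1, aromatase, -0.14, 0.24 and 2.25, both named after their values were seen.

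In 17 cyclic AMP-responsive early genes 0 passed, and the median was 0.29, with 0.54, 0.41 and 0.20 on arrays 1 to 3. At an unadjusted p under 0.05, 4 were higher and 1 lower (2.9% and 2.95% of all genes), and 7 were above 0 on all arrays and 1 below (11.4% and 12.6%). Fos, Junb, Nr4a2 and Atf3 are also in the list of other Star regulators. Atf3 was counted there as higher, and Atf3 and Nr4a2 as above 0 on all arrays, so the counts are not separate results. Dusp1, a MAP kinase phosphatase, gave -1.26, -1.03 and -0.70 (adjusted p = 0.350). Pde4b, a cyclic AMP phosphodiesterase, was at 0.87 ± 0.48 (adjusted p = 0.613), with 2 other probes at 1.01 and 0.97, and Egr1, an immediate early zinc finger factor, at 0.75 ± 0.07 (adjusted p = 0.532). For 14 partners and gonadal targets of the GATA factors the median was -0.11, 0 passed, 0 were higher and 1 lower at an unadjusted p under 0.05, and 3 were below 0 on all arrays and 0 above (12.6% and 11.4% of all genes). These 3 were Lhcgr, Inha and Fst, the activin-binding protein follistatin, at -0.47 ± 0.30 (adjusted p = 1). Lhcgr, which was also the 1 lower gene, and Inha, whose second probe was at 0.14, were already counted among the targets of SF-1 and LRH-1. The 2 lists share further genes, so they are not separate results.

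Promoter sequence was read for the 6 members with an entry in RefSeq's table for GRCm38.p6 (Nr5a2, Nr0b1, Nr4a1, Cebpb, Creb1 and Sp1), from 250 bases before to 50 after the start site, 7 windows in all. The E-box CACGTG, the element that BMAL1 and CLOCK bind, was in 0 of the 7 on either strand, and is in 7.15% of all 32851 such windows. The full cyclic AMP response element TGACGTCA was in 0 of the 7 (1.79% of all), and so was the SF-1 and LRH-1 element CAAGGTCA (1.56%). The shorter core of the response element, TGACG, was in 3 of the windows, those of Nr4a1, Cebpb and Sp1, and is in 20.8% of all. The shorter core of the SF-1 and LRH-1 element, CAAGG, was in 4 of the 7 (Nr5a2, Nr0b1, Nr4a1 and Sp1; 52.1% of all), and the GC box GGGCGG in 4 (Nr4a1, Cebpb, Creb1 and Sp1; 35.7%). Of the core TGACG, Cebpb has 3 matches and Sp1 has 1. Nr4a1, with the most TGACG matches among the members read, has 4, all in the reverse orientation. They lie at positions -233, -213, -69 and -40, counted at the motif's first base. They are shown with the matching bases in capitals, on the plus strand of chromosome 15.
Nr4a1 at chr15:101266601-101266630: ccgcgctccctgCGTCAatggaaccccgcg
Nr4a1 at chr15:101266621-101266650: gaaccccgcgtgCGTCAcgcgcgcagacat
Nr4a1 at chr15:101266765-101266794: ccgggccgtgtgCGTCAgtggcgcccccgc
Nr4a1 at chr15:101266794-101266823: cccctctccatgCGTCAcggagcgcttaag
These matches describe letters in the window and are not measured sites of binding.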

How the data were processed

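Ovarian RNA was measured on 3 two-colour Agilent arrays, each carrying a pool of 3 cKO animals in cy3 (green) and a pool of 3 controls in Cy5 (red), per the labels. Agilent Feature Extraction 9.1.3.1 subtracted local background, detrended the processed intensity values and normalised the dyes with a linear and a LOWESS step, per the file headers. The deposited log10 ratio is of red over green; the value table holds the same log10 values (largest difference 0). The error of each ratio, a score from the scanner software's model, is also as deposited.

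Here the log10 ratio was turned to log2 of cKO over control, outlier-marked spots (13 on array 1, 4 on array 2, 0 on array 3) were dropped, and spots of one probe were averaged. Probes well above background in one channel on all 3 arrays were kept (26421 of 41174). Ratios were tested against 0 with limma 3.58.1 in R 4.3.3 (lmFit, eBayes, two-sided, Benjamini-Hochberg, threshold 0.05). The steps were run on simulated ratios of 3 arrays drawn with the probes' own SDs. Of probes changed by a log2 of 1, 0% passed, and 16% at 2, 72% at 4 and 58% at -4. The SDs were estimated from the same 3 arrays, so these shares are a rough guide and not the power of the real test. Changes of 4 and -4 were drawn alike, so the gap between them shows the spread of the simulation itself. For surrounding genes, 24844 probes were named through their accession in RefSeq genes of GRCm38.p6, the rest by the name in the file. Named were the 10 members, Star, Arntl, from each list the genes past the threshold and the 3 largest with 1 sign on all arrays, and the 3 genes nearest to Nr5a1. Members and lists were chosen with earlier results of these data known. The alternatives were normexp with loess or median centring, scaling between arrays, no filter, 1 probe per gene, the slide as a block and leaving out each array. Depth has no meaning for array intensity; the number of arrays limits precision.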

Additional observations from a re-analysis of the deposited data

How the results depend on the processing

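In every alternative run, 0 member probes passed the threshold, with the lowest adjusted p (limma) between 0.121 and 1. The counts over all probes were not stable: 30 higher and 29 lower with the scanner's ratios became 0 and 1 with normexp and loess, 0 and 0 with normexp and median centring (3950 at an unadjusted p under 0.05), 8 and 1 with the arrays scaled to a common spread, 0 and 0 without a filter on dim probes (2657 unadjusted), and 170 and 117 with the slide as a fixed block. Leaving out 1 array gave 41 to 197 higher and 52 to 158 lower. At an unadjusted p under 0.05 (limma), 2 of 20 member probes were counted with normexp and loess (3061 of all 26421 probes). The count was 3 with normexp and median centring (3950), 2 with scaling (1547) and 1 of 22 without the filter (2657 of 41157). Leaving out array 1, 2 or 3 gave 1, 0 and 2 (789, 1470 and 4689). Star probe 1 kept an adjusted p under the threshold with normexp and loess (0.0326), and missed it with median centring (0.0527), scaling (0.0625) and no filter (0.214), its mean staying between -4.19 and -3.97 over all alternatives. Changes of sign of a member mean numbered 22. With normexp and loess the changed signs were Nr5a2 0.17, Gata4 probe 2 -0.12, Cebpb -0.027 and -0.11, and Creb1 probes 2 and 3 -0.080 and -0.019. With median centring they were Nr5a2 0.34, Nr0b1 0.22, Gata4 probe 2 -0.0065 and Creb1 probe 1 0.034. Crem probe 4 was -0.025 with scaling and -0.0032 with the slide block. Leaving out 1 array gave both signs for Nr5a2 (-0.50 to 0.11), Gata4 (-0.081 to 0.28 and -0.16 to 0.31), Gata6 probe 1 (-0.15 to 0.30), Cebpb probe 2 (-0.080 to 0.31), Creb1 probes 2 (-0.19 to 0.28) and 3 (-0.10 to 0.22), Crem probe 4 (-0.28 to 0.27), Sp1 (-0.045 to 0.31) and Arntl (-0.089 to 0.18). The cause was not tested. The fixed slide block was chosen after seeing the data, because a random block could not be estimated from 3 arrays and was not run; without array 1 the fit is that of the slide of arrays 2 and 3. The test of within-array ratios is already paired by array, so no further replicate block was fitted.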
